A study of Mus musculus with 8 samples.

Results

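Alveolar type 2 (AT2) cells are the epithelial cells that make and secrete pulmonary surfactant, and the 10 genes described here are markers of that cell or parts of the surfactant machinery: Sftpc, Sftpb, Sftpa1, Sftpd, Lamp3, Abca3, Napsa, Slc34a2, Lpcat1 and Etv5. They were taken by gene name from the deposited table of 54532 genes, and all 10 were found there and were among the 15564 genes that passed the filter on low counts. They were read in endothelial cells (ECs) isolated from the lungs of wild-type C57BL/6J mouse pups, in a model of bronchopulmonary dysplasia (BPD). Of 8 libraries, 4 were from pups kept in normoxia (room air, 21% O2) and 4 from pups kept in hyperoxia (80% O2), from the day of birth to postnatal day 14. No transgene, deletion or other agent was used in either group. ECs were isolated by the study with magnetic beads, first removing CD45-positive leukocytes from digested lung and then collecting what bound to CD31 beads. Other lung cells can remain in an isolate made this way. Whether a library came from 1 pup or from several, and from which sex, was not given in the sources used here, so that p-values measure only the spread between these libraries.

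Surfactant is a film of phospholipid and protein that lowers surface tension in the alveolus and keeps it from collapsing at the end of a breath. AT2 cells assemble its lipids and its small hydrophobic proteins, surfactant proteins B and C, in lamellar bodies, which are lysosome-related storage organelles that are emptied onto the alveolar surface. The larger surfactant proteins A and D are collectins, which bind sugars on microbes. AT2 cells are also the progenitors that replace the flat type 1 (AT1) cells of the gas exchange surface.

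The labelled cell type was first checked against its own markers. Summed over 12 pan-endothelial genes, the level was 18208 to 18796 CPM (counts scaled to a common library total, here without TMM) in normoxia and 18088 to 18815 CPM in hyperoxia. Pecam1, the gene of CD31, had 2902 ± 120 CPM in normoxia (SD, n = 4) against 2822 ± 112 CPM under hyperoxia (edgeR adjusted p = 0.558). Library totals were 16098086 to 18300730 counts. On the first principal component of all tested genes, which carried 57.8% of the variance, hyperoxia libraries 1, 2 and 4 lay at 40.2 to 42.9, hyperoxia 3 at 20.3 and the normoxia libraries at -43.6 to -28.5. Hyperoxia 3 thus stood between its group and the normoxia libraries. It had also been chosen beforehand to be shown apart, and the changes of the 10 genes are given with and without it.

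Hyperoxia libraries held more RNA of most of these genes. At an adjusted p under 0.05 (edgeR's quasi-likelihood test, adjusted over 15564 genes), 9 of the 10 genes were called higher in hyperoxia, or 90.0%, against 18.5% of all genes tested, and none was called lower (17.1% of all genes). With a log2 fold change of at least 1 added to the call, 8 of 10 were called higher, or 80.0%, against 5.62% of all genes, and none lower (1.36%). The median log2 fold change of the 10 genes was 2.80, where that of all tested genes was -0.0040. Without hyperoxia 3 the median was 3.05, and 10 and 8 genes passed the same calls. For 9 of 10 genes every hyperoxia library lay above every normoxia library, which held for 17.8% of all genes. In bulk RNA of a bead isolate, more AT2 cells in the lung, more of them carried into the isolate and more RNA per cell cannot be told apart.

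**Figure D1:**
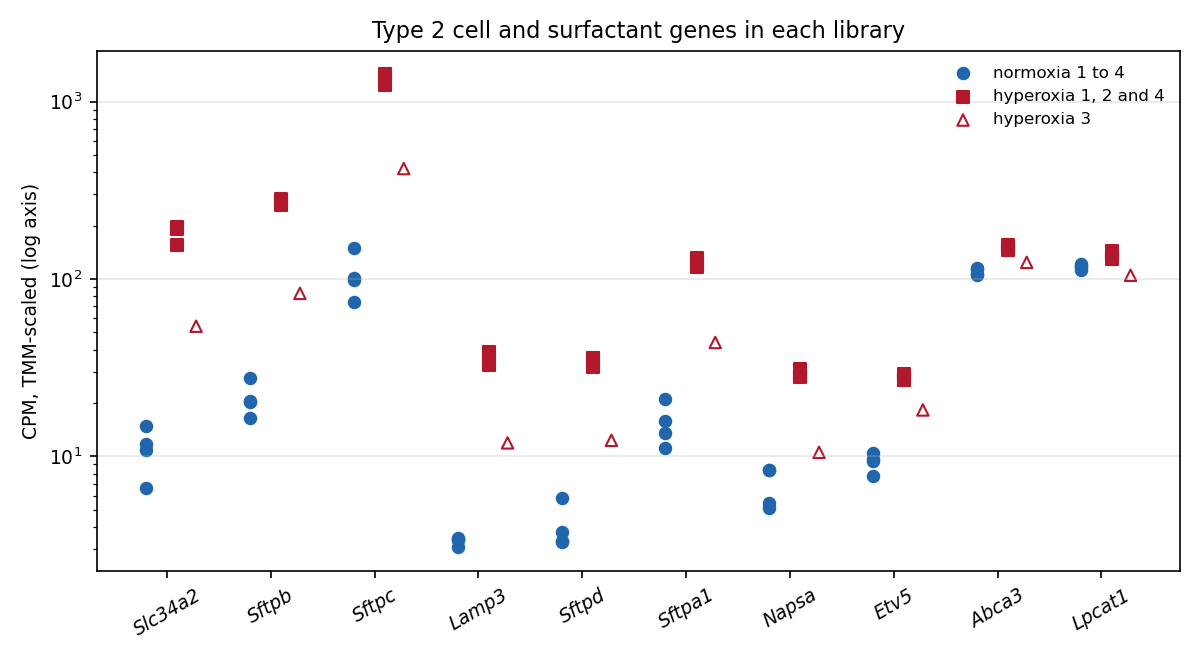
Level of each of the 10 genes in each library, as TMM-scaled CPM on a log axis, with genes in order of their fold change. Circles are the 4 normoxia libraries, filled squares hyperoxia 1, 2 and 4, and open triangles hyperoxia 3, which lies between the other symbols for 9 genes and below the normoxia libraries for Lpcat1.

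Sftpc encodes surfactant protein C, a small lipopeptide found in AT2 cells (ENSMUSG00000022097, GRCm38 chromosome 14, 70520949 to 70524081, minus strand). Its level in normoxia 1 to 4 was 149, 98.6, 102 and 74.6 CPM, and in hyperoxia 1 to 4 it was 1423, 1408, 419 and 1234 CPM. No hyperoxia library overlapped a normoxia library, and hyperoxia 3 was at 30.9% of the mean of the other 3 hyperoxia libraries. The means were 106 ± 31.1 and 1121 ± 476 CPM (SD, n = 4 each), a log2 fold change of 3.40 (SE 0.361, edgeR adjusted p = 4.88e-05), or 3.68 (SE 0.190) without hyperoxia 3. In FPKM, which corrects for gene length, Sftpc moved from rank 400 to rank 10 of the 15564 genes tested.

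Sftpb encodes surfactant protein B, which is needed for the surfactant film and for lamellar bodies to form (ENSMUSG00000056370, chromosome 6, 72304610 to 72314371, plus strand). It was at 27.6, 20.3, 20.6 and 16.5 CPM in normoxia 1 to 4, and at 283, 273, 82.9 and 260 CPM in hyperoxia 1 to 4. The groups were far apart, and hyperoxia 3 again was the lowest of its group. The log2 fold change was 3.41 (SE 0.349, edgeR adjusted p = 3.83e-05), or 3.68 (SE 0.132) without hyperoxia 3. Sftpb stayed at nearly the same proportion to Sftpc in all 8 libraries, as described further on.

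The collectins rose less than Sftpb and Sftpc, and their ratios to both did not overlap between the groups, as given further on with the limits of that test. Sftpa1, the gene of surfactant protein A (ENSMUSG00000021789, chromosome 14, 41131782 to 41136452, plus strand), was at 21.1, 11.1, 15.8 and 13.5 CPM in normoxia 1 to 4. In hyperoxia 1 to 4 it was at 131, 124, 43.8 and 116 CPM. Its log2 fold change was 2.76 (SE 0.321, edgeR adjusted p = 9.03e-05), and 3.01 without hyperoxia 3. Sftpd, the gene of surfactant protein D (ENSMUSG00000021795, chromosome 14, 41172214 to 41185149, minus strand), lies in the same collectin cluster as Sftpa1. It was at 5.82, 3.76, 3.30 and 3.31 CPM in normoxia 1 to 4 and at 31.7, 36.0, 12.3 and 35.6 CPM in hyperoxia 1 to 4, a log2 fold change of 2.84 (SE 0.331, edgeR adjusted p = 8.93e-05), or 3.09 without hyperoxia 3. Neither collectin had a hyperoxia library within the normoxia range.

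Of the lamellar body genes, Lamp3 changed most and Abca3 least. Lamp3 encodes a lysosome-associated membrane protein of lamellar bodies, also known as DC-LAMP from mature dendritic cells (ENSMUSG00000041247, chromosome 16, 19653378 to 19706375, minus strand). It was at 3.37, 3.07, 3.41 and 3.48 CPM in normoxia 1 to 4 and at 36.0, 38.6, 11.9 and 32.9 CPM in hyperoxia 1 to 4. The normoxia spread was the narrowest of the genes that rose more than 2-fold (5.39% of the mean). It rests on 54 to 63 counts per library, too few to read it as a trait of the gene. The log2 fold change was 3.16 (SE 0.328, edgeR adjusted p = 4.16e-05), or 3.42 without hyperoxia 3. Abca3 encodes the transporter that moves phospholipid into lamellar bodies (ENSMUSG00000024130, chromosome 17, 24351950 to 24410201, plus strand). It was at 105, 115, 107 and 114 CPM in normoxia 1 to 4, and at 156, 154, 124 and 145 CPM in hyperoxia 1 to 4. The groups did not overlap, but the log2 fold change was only 0.39 (SE 0.0707, edgeR adjusted p = 0.00154), or 0.46 without hyperoxia 3. An antisense transcript, D330041H03Rik, shares 9.75% of the exon bases of Abca3 and was itself at 2.78 CPM.

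Napsa and Slc34a2 mark AT2 cells through other functions. Napsa encodes napsin A, an aspartic protease that takes part in cutting the surfactant protein B precursor (ENSMUSG00000002204, chromosome 7, 44572380 to 44586862, plus strand). Its levels were 8.33, 5.46, 8.39 and 5.14 CPM in normoxia 1 to 4 and 30.9, 28.5, 10.5 and 27.8 CPM in hyperoxia 1 to 4. In hyperoxia 3 it was close to the normoxia range, and the log2 fold change of 1.84 (SE 0.309, edgeR adjusted p = 0.000983) became 2.09 (SE 0.167) without that library. Napsa shares 18.9% of its exon bases with the antisense gene Gm15396, which was at 0.0213 CPM. Slc34a2 encodes the sodium-phosphate cotransporter through which AT2 cells take up phosphate (ENSMUSG00000029188, chromosome 5, 53038081 to 53071664, plus strand). It was at 14.8, 11.7, 10.9 and 6.63 CPM in normoxia 1 to 4 and at 195, 190.5, 54.1 and 156 CPM in hyperoxia 1 to 4. Its log2 fold change, 3.76 (SE 0.389, edgeR adjusted p = 4.04e-05), was the largest of the 10, and was 4.04 without hyperoxia 3.

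Lpcat1 was the 1 gene not past the test. It encodes the acyltransferase that remodels phosphatidylcholine into the dipalmitoyl form, the main surface-active lipid of surfactant (ENSMUSG00000021608, chromosome 13, 73467197 to 73516422, plus strand). It was at 122, 113, 117 and 119 CPM in normoxia 1 to 4 and at 137, 143, 105 and 129.7 CPM in hyperoxia 1 to 4, so that hyperoxia 3 lay below all normoxia libraries and the other 3 above them. The log2 fold change was 0.13 (SE 0.0838, edgeR adjusted p = 0.255). Without hyperoxia 3 it was 0.22 (SE 0.0529, edgeR adjusted p = 0.0101), so 1 library decided the call.

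Etv5 encodes an ETS family transcription factor that acts downstream of FGF signalling and maintains AT2 identity (ENSMUSG00000013089, chromosome 16, 22381309 to 22439719, minus strand). Its levels were 9.43, 7.74, 10.5 and 9.67 CPM in normoxia 1 to 4 and 26.9, 29.2, 18.3 and 27.0 CPM in hyperoxia 1 to 4. The log2 fold change was 1.44 (SE 0.149, edgeR adjusted p = 4.06e-05), or 1.57 without hyperoxia 3. Relative to its group, hyperoxia 3 was less low for Etv5 than for the surfactant proteins, at 65.9% of the mean of the other 3 hyperoxia libraries.

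**Figure D2:**
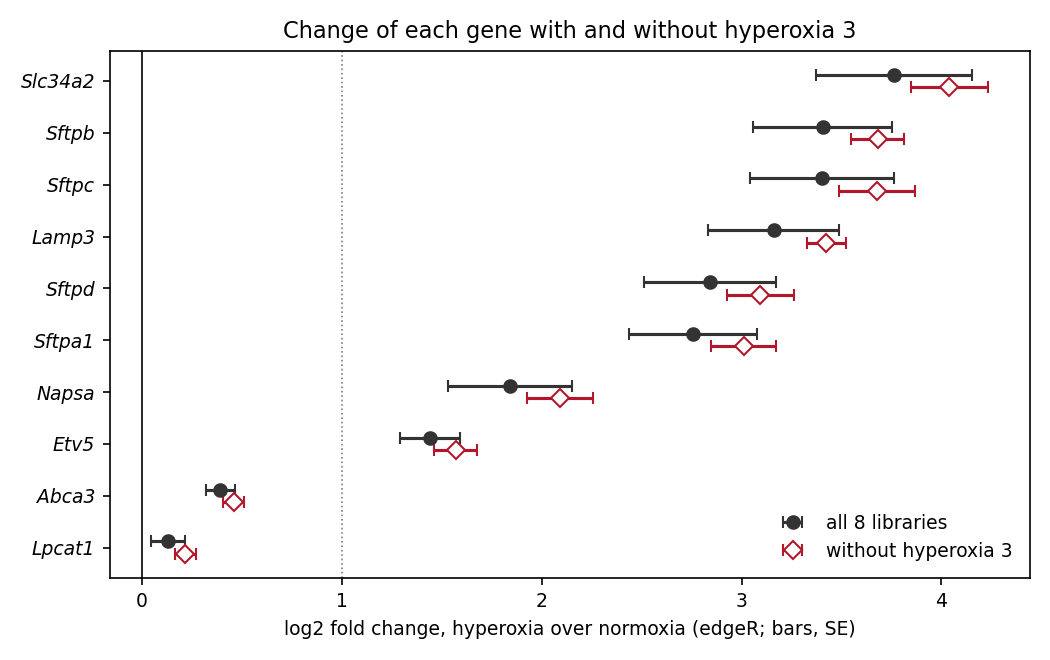
Log2 fold change of each gene, hyperoxia over normoxia, from edgeR with its standard error as a bar. Filled circles use all 8 libraries and open diamonds leave out hyperoxia 3; the values run from 0.13 (Lpcat1) to 3.76 (Slc34a2) with all libraries and from 0.22 to 4.04 without it, and the dotted line marks a log2 fold change of 1.

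The promoters of 7 of the 10 genes were in the RefSeq table for GRCm38.p6, and the 250 bases before the transcript start were searched on both strands for 5 short motifs of factors known in lung epithelium. The letters were CTCAAG for NKX2-1, TGTTTNC for FOXA, TTGCNNAA for C/EBP, CCGGAA for ETS factors and AGATAA for GATA factors. Sftpb, Sftpa1 and Lamp3, 3 of the 4 genes that hold letters of the lineage factors NKX2-1 and FOXA, are shown as examples, and the other, Etv5, is described by its match only. The windows, all written 5′ to 3′ on the strand of the gene with matches in capitals, are Sftpb at chr6:72304360-72304609, Sftpa1 at chr14:41131538-41131787 and Lamp3 at chr16:19706366-19706615 (minus strand).
Sftpb: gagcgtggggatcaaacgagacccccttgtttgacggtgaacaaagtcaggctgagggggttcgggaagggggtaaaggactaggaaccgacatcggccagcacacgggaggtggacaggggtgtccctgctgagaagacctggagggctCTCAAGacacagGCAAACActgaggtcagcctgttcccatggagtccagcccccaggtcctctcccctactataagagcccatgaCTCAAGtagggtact
Sftpa1: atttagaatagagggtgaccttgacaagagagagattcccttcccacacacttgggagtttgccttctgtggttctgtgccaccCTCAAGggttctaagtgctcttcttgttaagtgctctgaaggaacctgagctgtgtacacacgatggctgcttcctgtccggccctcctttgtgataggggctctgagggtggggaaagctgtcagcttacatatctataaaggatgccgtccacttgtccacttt
Lamp3: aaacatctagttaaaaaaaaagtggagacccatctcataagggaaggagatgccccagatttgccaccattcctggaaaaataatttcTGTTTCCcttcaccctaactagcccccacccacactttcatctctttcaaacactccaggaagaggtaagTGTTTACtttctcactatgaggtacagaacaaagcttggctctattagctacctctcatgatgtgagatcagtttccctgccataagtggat
In Sftpb the NKX2-1 letters began 100 and 15 bases before the start, and the FOXA letters, read on the other strand, began 88 bases before it. In Sftpa1 the NKX2-1 letters began 166 bases before the start. In Lamp3 the FOXA letters began 162 and 92 bases before the start.

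The 7 genes had 8 windows, since Etv5 had 2, and the shares of all promoters are per window and not per gene. The NKX2-1 letters were in 2 genes (Sftpb and Sftpa1), against 13.3% of 32851 RefSeq promoters of the same length. The FOXA letters were in 3 genes (Sftpb, Lamp3 and the first of the Etv5 windows), against 17.8%. The C/EBP letters were in Slc34a2, as a palindrome that reads the same on both strands (9.56% of all promoters), and the ETS letters in Abca3 (12.03%). The GATA letters were in none of the 8 windows (9.99%). The Lpcat1 window and the second Etv5 window held none of the 5 motifs. GC content ran from 42.4% in Lamp3 to 71.2% in the first of the Etv5 windows, where the quartiles of all promoters were 45.2% and 61.2%. Matches of different motifs did not overlap, and a match of such short letters is a description of the sequence and not a binding site.

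Levels of different genes were put in order only in FPKM, since counts also grow with gene length. In normoxia the order of mean FPKM was Sftpc (102), Lpcat1 (25.2), Abca3 (12.4), Sftpb (10.7), Sftpa1 (5.33), Napsa (2.55), Etv5 (2.25), Slc34a2 (2.18), Sftpd (1.66) and Lamp3 (0.985). Among neighbours in that order, the ranges over the 4 libraries overlapped for Abca3 and Sftpb, Napsa and Etv5, Etv5 and Slc34a2, and Slc34a2 and Sftpd, so these pairs were not separated by level. In hyperoxia the order of mean FPKM was Sftpc (1078), Sftpb (114), Sftpa1 (36.1), Slc34a2 (29.5), Lpcat1 (27.6), Abca3 (16.3), Sftpd (11.9), Napsa (9.14), Lamp3 (8.85) and Etv5 (6.14). Sftpb, Sftpa1 and Slc34a2 had thus passed the lipid genes Lpcat1 and Abca3 in the mean. With hyperoxia 3 in the range most hyperoxia neighbours overlapped, and the exceptions were Sftpc above Sftpb and Lpcat1 above Abca3. Compared within each library, Sftpb was above Sftpa1, Sftpa1 above Slc34a2, Abca3 above Sftpd and Sftpd above Napsa in all 4 hyperoxia libraries. The order Slc34a2 above Lpcat1, Napsa above Lamp3 and Lamp3 above Etv5 held in 3 of the 4. Without hyperoxia 3, the only overlapping neighbours were Slc34a2 with Lpcat1 and Napsa with Lamp3.

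Together the 10 genes took 0.0408 ± 0.00472% of all counts in normoxia (SD, n = 4) and 0.196 ± 0.0739% in hyperoxia. The normoxia libraries ranged from 0.0362% to 0.0473%, hyperoxia 3 was at 0.0869%, and hyperoxia 1, 2 and 4 were at 0.216% to 0.244%. The ratio of the group means was 4.81, or 5.71 without hyperoxia 3. The makeup of that share differed as well. Sftpc supplied 20.4% to 32.0% of the counts on the 10 genes in normoxia, 57.0% to 58.1% in hyperoxia 1, 2 and 4 and 47.5% in hyperoxia 3. Abca3 and Lpcat1 together supplied 48.7% to 63.7% in normoxia, 11.9% to 12.7% in hyperoxia 1, 2 and 4 and 25.95% in hyperoxia 3. These are shares of counts, which grow with gene length, so they do not rank the genes by level.

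Whether the genes moved in proportion was tested on the log2 ratio of the counts of each pair within a library, which does not depend on the scaling of libraries. With 4 libraries against 4, the exact two-sided permutation test has 70 assignments and a smallest p of 0.0286. A pair reaches that p when its ratios do not overlap between the groups. Whether it then passes the adjustment depends on how many other pairs reach it too. Of 45 pairs, 38 differed between normoxia and hyperoxia after adjustment over the 45 (adjusted p = 0.0338), all at that smallest p, and without hyperoxia 3 the number was 31. The 10 genes therefore did not change by 1 common factor. Every pair that held Abca3 or Lpcat1 was among the 38, and which cells supplied the RNA of these genes was not tested. The share over pairs of other genes was not computed, so how unusual 38 of 45 is cannot be said. Of all single genes tested, 35.4% had groups that did not overlap, counting both directions. The 7 pairs that did not pass were Sftpc with Sftpb and with Lamp3, Sftpb with Lamp3, Sftpd with Sftpa1 and with Lamp3, Sftpa1 with Lamp3, and Napsa with Etv5. The ratios of Lamp3 to the 4 surfactant protein genes were thus all among those that did not pass, with unadjusted exact permutation p-values of 0.0857 to 0.286, and the test at this number of libraries does not show that these ratios were equal.

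Sftpb and Sftpc kept the closest proportion. Sftpb had 18.5% to 22.1% of the counts of Sftpc in normoxia, 19.4% to 21.0% in hyperoxia and 19.8% in hyperoxia 3. The change in their log2 ratio was -0.02 (exact permutation p = 0.714), with SDs of 0.107 and 0.0501 in normoxia and hyperoxia. Slc34a2 rose from 10.3% to 13.2% of the Sftpc count, a change of 0.35 in the log2 ratio (exact permutation p = 0.0286, adjusted p = 0.0338), and was the 1 gene whose ratio to Sftpc rose past the test.

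The other ratios to Sftpc that passed the test fell. In the means, Sftpa1 went from 14.8% to 9.47% of the Sftpc count, Sftpd from 3.85% to 2.65%, Napsa from 6.57% to 2.24% and Etv5 from 9.35% to 2.63%. The largest shifts were in the lipid genes. Abca3 had 111% of the Sftpc count in normoxia and 15.8% in hyperoxia, and Lpcat1 118% and 13.8%. These percents set counts of genes of unlike length side by side (8797 bases for Abca3, 4632 for Lpcat1 and 1034 for Sftpc). They show how a ratio changed and not which gene was higher. In FPKM the normoxia means were 12.4 for Abca3, 25.2 for Lpcat1 and 102 for Sftpc. In hyperoxia 3, Abca3 was at 29.6% and Lpcat1 at 25.02% of Sftpc, between the groups, while Sftpb, Slc34a2, Lamp3 and Sftpd stayed within or next to the range of the other hyperoxia libraries.

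**Figure D3:**
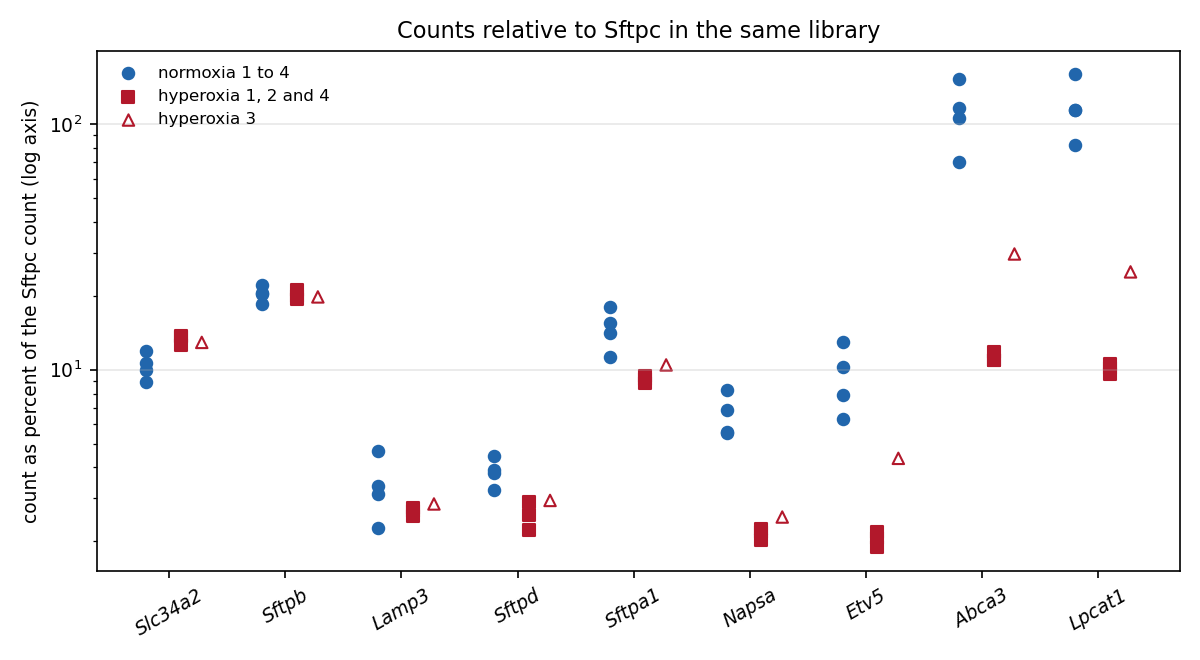
Count of each of 9 genes as a percent of the Sftpc count of the same library, on a log axis, without correction for gene length. Circles are normoxia 1 to 4, squares hyperoxia 1, 2 and 4, and triangles hyperoxia 3; Sftpb stays between 18.5% and 22.1% in all libraries, while Abca3 falls from 111% to 15.8% and Lpcat1 from 118% to 13.8%.

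Hyperoxia 3 was the lowest hyperoxia library for 10 of the 10 genes, which held for 27.8% of all tested genes. That share counts genes of any direction, and the share among genes called higher was not computed. The rise of hyperoxia 3 over the normoxia mean was expressed as a percent of the mean rise in hyperoxia 1, 2 and 4. This rise was 25.1% for Sftpc, 24.6% for Sftpb, 26.3% for Sftpa1, 27.2% for Sftpd, 26.4% for Lamp3 and 25.5% for Slc34a2. These 6 genes thus rose in hyperoxia 3 by about the same part of what they rose elsewhere. Napsa was lower at 16.6%, and Abca3 (33.6%) and Etv5 (48.6%) were higher.

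Over all 875 genes called higher with a log2 fold change of at least 1, the median of this rise was 61.7% (quartiles 27.1% and 89.9%), and 43.1% of them were at or below the 48.6% of Etv5. Under the same calls the median was 25.9% for the type 2 and surfactant genes. In lists described further on it was 25.5% for other AT2, 26.3% for AT1 and 23.5% for pan-epithelial markers. It was 22.6% for lineage transcription factors (9 genes, 1.17% to 90.1%) and 15.9% for fibroblast markers (4 genes). For mural markers it was 40.8% (7 genes, 0.0936% to 84.1%) and for surfactant lipid genes 80.1%, with only 2 genes called. Medians of so few genes are loose. A low rise in hyperoxia 3 was thus not particular to the type 2 and surfactant genes. The pan-endothelial sum of hyperoxia 3, 18702 CPM, lay within the range of both groups. Within normoxia, where the levels were lower, library 1 was the highest of the 4 for 6 genes. There the SD was 21.7% to 30.7% of the mean for Sftpc, Sftpb, Sftpa1, Sftpd, Napsa and Slc34a2, 12.3% for Etv5 and 3.30% to 5.39% for Lpcat1, Abca3 and Lamp3. Of these last 3, Lamp3 had only 54 to 63 counts per normoxia library.

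**Figure D4:**
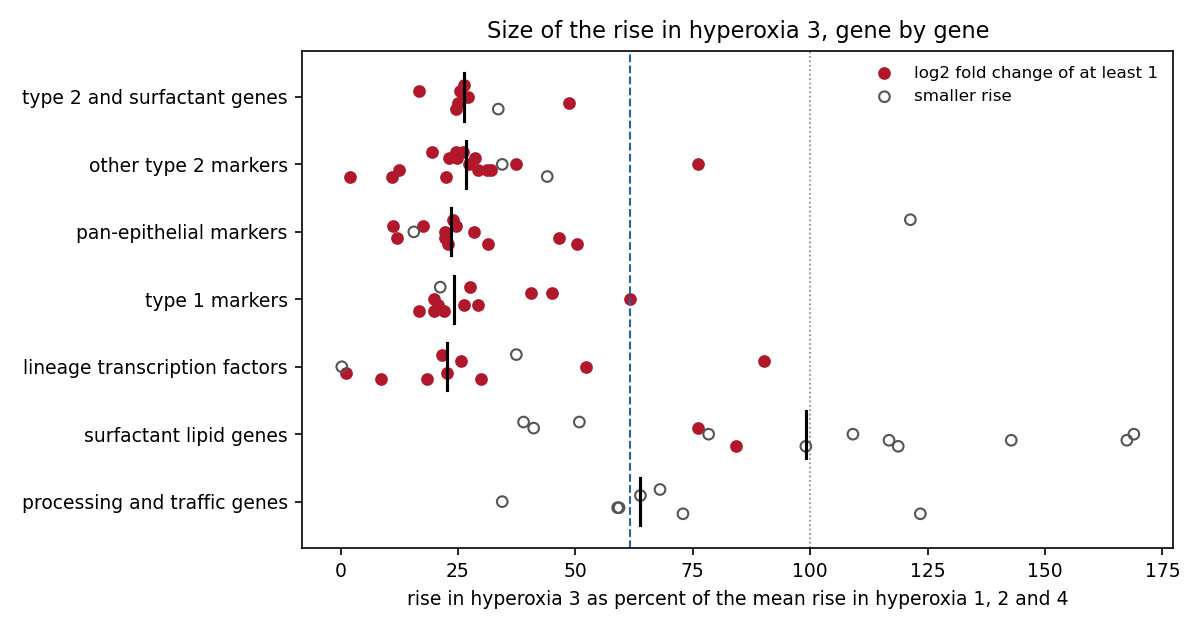
Rise of each gene in hyperoxia 3 over the normoxia mean, as a percent of its mean rise in hyperoxia 1, 2 and 4, for the genes of 7 lists called higher at an adjusted p under 0.05. Filled points have a log2 fold change of at least 1 and open points a smaller one; black bars are list medians (26.3% for the type 2 and surfactant genes), the dashed line is the median of the 875 genes called higher with that fold (61.7%), and the dotted line is 100%.

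Other genes of the AT2 cell moved with these 10. Of 22 further AT2 markers, 20 were tested, 18 were called higher and none lower, 16 with a log2 fold change of at least 1, and the median log2 fold change was 2.52. Without hyperoxia 3, 21 were tested, 19 were called higher and 17 with the fold, with a median of 2.59. Hc, the gene of complement C5, went from 5.14 ± 0.949 to 84.6 ± 33.3 CPM (SD, n = 4 each), a log2 fold change of 4.05 (SE 0.338, edgeR adjusted p = 9.05e-06). Egfl6 (3.93) and S100g, a calcium-binding protein (3.60), also rose. The most abundant of these markers are shared with leukocytes. Lyz2, a lysozyme of myeloid cells and AT2 cells, went from 77.3 ± 36.4 to 225 ± 90.1 CPM with overlapping libraries (log2 fold change 1.54, edgeR adjusted p = 0.00748). Ctsh, a cathepsin that cuts surfactant protein precursors, rose by 0.62 on the log2 scale (edgeR adjusted p = 0.0212), also with overlapping libraries. Cd74, the invariant chain of MHC class II, was at 189 ± 39.1 and 195 ± 51.5 CPM (edgeR adjusted p = 0.882).

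The broader genes of surfactant lipid metabolism, which many cell types use, were called often but by small amounts. Of 28 such genes 27 were tested and 13 were called higher, where 18.5% of all genes were, and 1 lower. Only 2 had a log2 fold change of at least 1, and the median log2 fold change was 0.19. Without hyperoxia 3, 14 were called higher, 3 of them with the fold, and the median was again 0.19. Fasn, the fatty acid synthase, rose from 40.2 ± 5.001 to 123 ± 13.3 CPM (log2 fold change 1.61, SE 0.0965, edgeR adjusted p = 1.02e-06), and Pla2g4a, a phospholipase A2, by 1.16 on the log2 scale (edgeR adjusted p = 0.000115). Hyperoxia 3 was less apart here. Fasn was at 113 CPM in that library, where its rise was 84.1% of that in the other 3, and Pla2g4a at 76.2%. Adgrf5, a receptor that limits the surfactant pool and is also abundant in ECs, fell from 3923 ± 203 to 3104 ± 73.2 CPM (log2 fold change -0.34, edgeR adjusted p = 0.000361). Acly (adjusted p = 0.722) and Abca1 (adjusted p = 0.411) did not pass edgeR's test.

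Genes of surfactant protein processing and lamellar body traffic were also mixed. Of 21 genes 19 were tested, 7 were called higher and 3 lower, none with a log2 fold change of at least 1, with a median of 0.12. Without hyperoxia 3 the counts were 7 and 3 again. With libraries scaled by their totals alone or by the pan-endothelial markers, 5 genes were called lower. Lamp2, a general lysosomal membrane protein, rose from 179 ± 6.34 to 248 ± 12.3 CPM (log2 fold change 0.47, edgeR adjusted p = 4.16e-05). Its relative Lamp1 was at 531 ± 20.2 and 577 ± 13.9 CPM (adjusted p = 0.0558), and the ubiquitin ligase Nedd4 was at 1261 ± 62.5 and 1159 ± 16.7 CPM (adjusted p = 0.0644), both short of the edgeR threshold.

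Transcription factors of the lung epithelial lineage rose in most cases. Of 17 genes 15 were tested, 11 were called higher and 2 lower, 9 of the 11 with a log2 fold change of at least 1, and the median was 1.39. Without hyperoxia 3, 16 were tested, 12 were called higher and 2 lower, and the median was 1.69. Nkx2-1, the master factor of lung epithelium, rose from 1.36 ± 0.575 to 12.5 ± 5.25 CPM (log2 fold change 3.20, SE 0.400, edgeR adjusted p = 0.000145) and was at 4.87 CPM in hyperoxia 3. Foxa1 (3.56) and Irx2 (3.40) rose by similar log2 fold changes. The most abundant factors of the list did not follow. Nfib fell by 0.28 and Id2 by 0.52 on the log2 scale (edgeR adjusted p = 0.0071 and 0.00251), and Gata6 was at 52.0 ± 6.95 and 45.9 ± 4.98 CPM (adjusted p = 0.215). Etv4, a close relative of Etv5 singled out after its values were seen, went from 1.66 to 9.28 CPM (log2 fold change 2.48), and its rise in hyperoxia 3 was 90.1% of that in the other 3 libraries, against 48.6% for Etv5.

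Markers of other epithelial cells were higher in hyperoxia too. Of 15 AT1 markers 12 were called higher and 1 lower, and the median was 2.47 on the log2 scale (12, 1 and 2.65 without hyperoxia 3). Scnn1g, a subunit of the epithelial sodium channel (3.97), Aqp5, a water channel (3.76), and Krt7, a keratin (3.14), rose most. The abundant Emp2 (adjusted p = 0.170) and Clic5 (adjusted p = 0.387) did not pass edgeR's test and Vegfa fell by 0.37 on the log2 scale. Of 16 pan-epithelial markers 15 were tested, 14 were called higher and none lower, with a median of 2.72 (14, none and 2.95 without hyperoxia 3). Cldn18, a tight junction protein, rose from 5.16 ± 1.44 to 62.7 ± 27.9 CPM (log2 fold change 3.61), and Cdh1, the gene of E-cadherin, from 2.40 ± 0.828 to 23.2 ± 10.2 CPM (3.28). Krt8 and Esrp1 rose by log2 fold changes of 3.67 and 3.52, from low normoxia means of 0.641 and 0.178 CPM. Prom1 rose by only 0.61. The pan-epithelial sum ranged from 37.0 to 47.7 CPM under normoxia and from 198 to 218 CPM in hyperoxia 1, 2 and 4, with hyperoxia 3 at 87.6 CPM, the same order of library sets as for most of the 10 genes. The AT1 sum, which is led by Emp2, Clic5 and Vegfa, ranged from 2214 to 2555 CPM under normoxia and from 2870 to 3126 CPM in hyperoxia 1, 2 and 4, and hyperoxia 3, at 2434 CPM, was within the normoxia range. No gene of the AT1 or pan-epithelial lists was at 0 in all 8 libraries. Their part in the change of the 10 genes was not tested.

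Airway epithelium was less represented. Of 16 airway markers only 5 were tested, 2 were called higher and 1 lower, and Ccdc113, Bpifa1 and Krt5 had no count in any library. Sec14l3 rose (log2 fold change 3.68) and Tppp3 rose by 0.50, while Scgb3a1, a secretoglobin, fell by 0.88 from 1.93 ± 0.476 CPM, a call lost when any of normoxia 2, 3 and 4 or hyperoxia 1, 2 and 4 was left out. The airway sum, most of it Tppp3, was 63.7 to 87.1 CPM in normoxia, 134 to 160 CPM in hyperoxia 1, 2 and 4 and 90.2 CPM in hyperoxia 3.

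**Figure D5:**
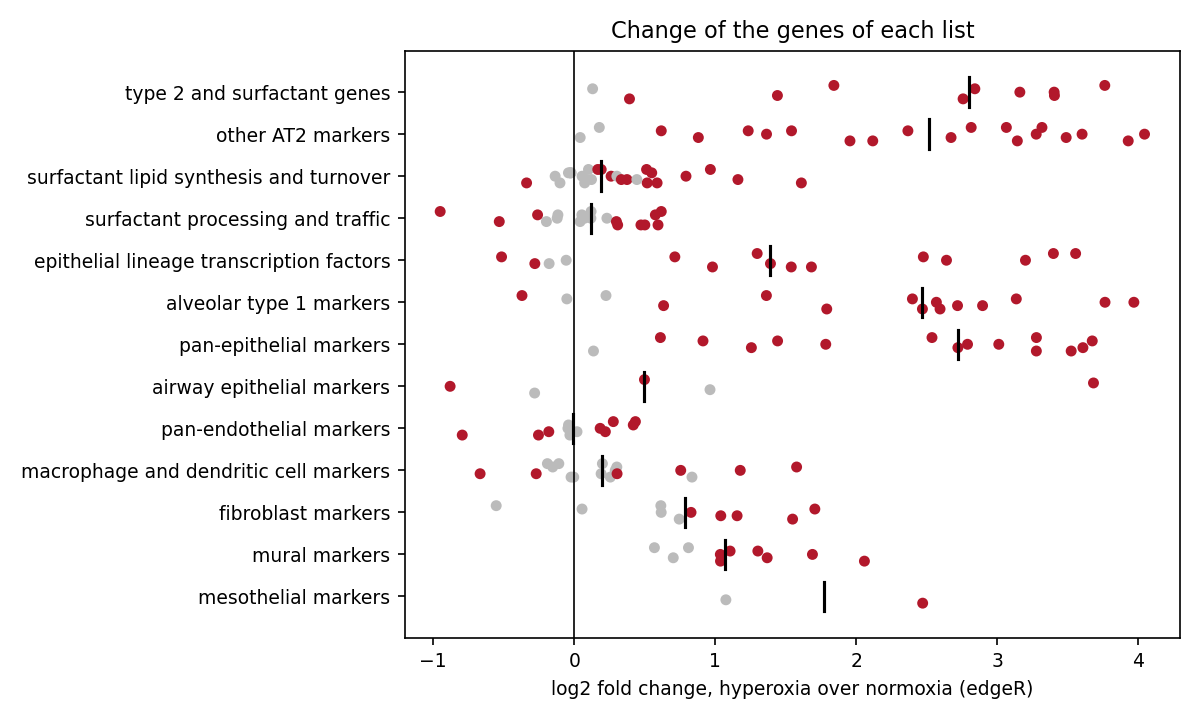
Log2 fold change, hyperoxia over normoxia, of every tested gene of 13 lists; red points passed an adjusted p under 0.05 in edgeR, grey points did not, and black bars are medians. The type 2 and surfactant genes (median 2.80), other AT2 (2.52), pan-epithelial (2.72) and AT1 markers (2.47) lie to the right, and the pan-endothelial markers (-0.0054) and the surfactant lipid genes (0.19) around 0.

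Endothelial and leukocyte markers had medians near 0. Of 12 pan-endothelial genes 5 were called higher and 3 lower, none with a log2 fold change of at least 1. Cdh5, the gene of VE-cadherin, was at 4121 ± 175 and 4035 ± 140 CPM (edgeR adjusted p = 0.658), and Cldn5 rose by 0.22 on the log2 scale. Of 17 macrophage and dendritic cell markers 4 were called higher and 2 lower, with a median of 0.20, and their sum was 618 to 763 CPM in normoxia, 672 to 788 CPM in hyperoxia 1, 2 and 4 and 699 CPM in hyperoxia 3. That sum was led by Fscn1 and Zbtb46, at means of 319 and 111 CPM in normoxia, so it says little of the other markers. Marco (1.58) and Itgax (1.18), both found in alveolar macrophages, rose, with overlapping libraries for Marco, and Ptprc, the gene of CD45, was at 38.4 ± 16.5 and 38.3 ± 13.1 CPM. Fscn1, a dendritic cell marker, rose by 0.30 and Zbtb46 fell by 0.27. The 4 higher calls became 2 without normoxia 1, normoxia 4, hyperoxia 1 or hyperoxia 4 and under the replicate block. Calls with the fold went from 2 to 1 without normoxia 1, 2 or 4 or hyperoxia 4 and to 0 without hyperoxia 1.

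Stromal markers rose in part. Of 11 fibroblast markers 10 were tested and 5 were called higher (median 0.79), among them the collagen genes Col1a1 (1.55), Col1a2 (1.16) and Col3a1 (0.83) and the proteoglycan Dcn (1.71), while Mfap4 did not pass (edgeR adjusted p = 0.0999). Of 10 mural markers 7 were called higher (median 1.07), among them Acta2 (2.06), Cspg4 (1.69), Notch3 (1.37), Rgs5 (1.11) and Pdgfrb (1.04). The fibroblast count depended on single libraries, with 8 called higher without hyperoxia 3 and 3 without hyperoxia 2 or without hyperoxia 4, and calls with the fold went from 4 to 1 without hyperoxia 2. Without hyperoxia 3, 8 mural markers were called higher. Of 5 mesothelial markers 2 were tested, and Msln rose (2.47) while Upk1b did not pass (edgeR adjusted p = 0.0818), though both were called without normoxia 1 or without hyperoxia 4. The fibroblast sum ranged from 274 to 507 CPM under normoxia and from 619 to 799 CPM in hyperoxia 1, 2 and 4, with hyperoxia 3 at 348 CPM. Mitochondrially encoded genes took 0.864% to 1.05% of counts in normoxia and 1.21% to 1.43% in hyperoxia. Whether these differences bear on the 10 genes was not tested.

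The genes whose profile over the 8 libraries was most like the mean profile of the 10 were found among 10830 genes by the root mean square difference in log2 CPM, each centred on its normoxia mean. The 5 nearest were Spock2 (0.148), Scd1 (0.150), Sema3a (0.193), Rbpjl (0.226) and Lama3 (0.227). Spock2 is an extracellular matrix proteoglycan counted among the AT1 markers, Scd1 a fatty acid desaturase counted among the further AT2 markers, Sema3a a semaphorin, Rbpjl a transcription factor and Lama3 a laminin chain of epithelial basement membranes. Their log2 fold changes were 2.40, 2.37, 2.15, 2.49 and 2.03. Scd1 was at 17.8 to 26.7 CPM in normoxia, 55.4 CPM in hyperoxia 3 and between 125 and 129.7 CPM in hyperoxia 1, 2 and 4. The 10 genes themselves lay 0.350 (Sftpa1) to 1.51 (Lpcat1) from their own mean profile, farther than any of these 5. Slc34a2, Sftpc and Sftpb moved more than the mean profile, and Abca3 and Lpcat1 less.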

How the data were processed

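RNA of lung ECs from 4 normoxia and 4 hyperoxia libraries was sequenced as paired ends. The authors deposited whole-number counts per gene and FPKM values. The labels' processing notes name HISAT2 2.0.5, featureCounts 1.5.0-p3 and build mm10, while the use of strand and of reads that match several genes was not given in the sources used here. Without a known strand setting, reads of a gene and its antisense partner cannot be told apart. Groups came from the sample titles. The deposited positions of the 10 genes equalled those of GENCODE M21.

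For the test across genes, edgeR 4.0.16 (R 4.3.3) was run on the counts in its quasi-likelihood form, with TMM scaling, the filterByExpr filter (15564 genes kept, at least 99.8% of counts in each library), the group as the only term and Benjamini-Hochberg adjustment. Depth was 16098086 to 18300730 counts, and counts on the 10 genes ran from 54 to 24931. On simulated data of 15564 genes with this design, 73 of 100 genes changed 2-fold and 98 of 100 changed 4-fold were recovered, and 8 of 15136 unchanged genes were called. Pair ratios used a pseudocount of 0.5. Levels are TMM-scaled CPM, and summed lists are CPM by library total. Each standard error was taken from the F statistic.

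The alternatives were DESeq2 1.42.0, limma 3.58.1 on counts with voom and on FPKM, other scalings and filters, a replicate block and each library left out. The 10 genes, the gene lists and the motifs were chosen with earlier results of these data known. Named genes were the 10 genes, in each list the 3 most abundant and the 3 with the largest change past both thresholds, and the 5 with the most similar profile among genes with a mean of at least 5 CPM. Promoters were RefSeq's (GRCm38.p6).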

Additional observations from a re-analysis of the deposited data

Results flagged for a closer look

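In 3 of the 10 genes, hyperoxia 3 lay so far below the other hyperoxia libraries that its gap to the nearest of them was over 0.829 of the range of the group, the limit of Dixon's test for 4 libraries. These were Sftpb, at 82.9 CPM against 260 to 283 CPM in hyperoxia 1, 2 and 4, Sftpa1, at 43.8 CPM against 116 to 131 CPM, and Napsa, at 10.5 CPM against 27.8 to 30.9 CPM. In all, 22 groups of 4 libraries were tested and 3 were marked, each time for hyperoxia 3. That library had been chosen beforehand to be shown apart for these genes. The marks therefore describe it, and no comparison with chance is drawn from them. The genes of 1 library are not independent of each other. The other 7 genes showed the same order, with hyperoxia 3 lowest in each, but with a gap under the limit.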

How the results depend on the processing

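All 10 genes kept their direction under all 18 alternatives, and the 9 called genes kept their call. Lpcat1 ranged from 0.08 to 0.22 (log2 fold change, adjusted p 0.0101 to 0.541) and passed the threshold only without hyperoxia 3 (0.22, adjusted p = 0.0101). With each library left out in turn, 9 to 10 of the 10 genes were called higher, and 8 in every case with the fold criterion. Other AT2 markers called higher were 17 to 19, and 16 to 17 with the fold. Over all genes, 2393 to 2832 were called higher (2875 with all libraries), 2133 to 2613 lower (2660), and 821 to 1024 higher with the fold (875). Pairs with a changed ratio numbered 29 to 35 (38), and the ratio of the summed shares was 4.42 to 5.71 (4.81). On log2(FPKM + 1) with limma, 286 genes were called higher with the fold, since the pseudocount compresses low values, and by summed FPKM, which weights short genes such as Sftpc more, the ratio of shares was 7.93. The 3 other scalings moved the median log2 fold change of all genes to between -0.036 and -0.0018.

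With the replicate number as a block, 9 of the 10 genes were called higher and 8 with the fold, and 2582 genes were called higher, 2210 lower and 863 higher with the fold. Pair ratios tested by sign flips within numbers gave 0 of 45, since 4 numbers are too few for that test to pass the threshold. The labels do not say that a number marks a shared litter or day, and the deviations of same-numbered libraries correlated at 0.119, 0.0361, -0.125 and -0.14. Not every library correlated best with its own number, so the numbers were not taken as pairs. The number of libraries limits what can be said of Abca3 and Lpcat1, whose differences were small, and counts as low as 54 limit Lamp3 in normoxia.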
